A study of Mus musculus with 36 samples.

Results

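Collagen genes were examined in the hypothalamus of mice injected with TNFα, IL-6 or both. All genes with an array symbol of the form Col, a number, a and a number, as the only symbol of a transcript cluster, were taken, which gave 42 collagen genes among 18820 genes with 1 symbol. Of these, 41 exceeded an intensity of 20 on 3 arrays or more and were among the 15049 genes tested, and 39 were over 20 on all 35 arrays used. Col10a1, the collagen of hypertrophic cartilage, was over 20 on 1 array and was not tested. Collagen genes that share a transcript cluster with another gene, Col9a3 and Col7a1, are not members.

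The mice were male C57BL/6, housed singly, and each group had 12 mice, of which 6 gave hypothalamic RNA for 1 Affymetrix Mouse Gene 1.1 ST array each. Control mice received 50 µl of saline into the peritoneum. TNFα was given alone at 15 pg (TNF), IL-6 alone at 50 pg (IL-6 Low) or 800 pg (IL-6 High), and the same 15 pg of TNFα was combined with 50 pg (TNF + IL-6 Low) or with 800 pg (TNF + IL-6 High) of IL-6. All mice were killed 5 h after the injection. One array, TNF replicate 4, stood apart: the median of its correlations was 0.302, compared with 0.988 to 0.994 on each of the remaining 35, and it was left out. The neuropeptide genes Oxt and Avp, which mark hypothalamic neurons, were over 20 on all 35 arrays, with log2 intensities of 8.87 to 10.93 for Oxt and 8.34 to 10.51 for Avp. Genes of neighbouring tissue varied more widely. The pituitary genes Gh and Prl ran from 4.79 to 13.57 (median 5.65) and from 3.16 to 12.82 (median 4.05). The choroid plexus gene Ttr ran from 4.51 to 10.05 (median 5.47). How much neighbouring tissue each array held was not tested.

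Collagens are triple-helical proteins of the extracellular matrix. Fibrillar collagens such as types I and III form the tensile fibrils of connective tissue, which in brain lie mainly in the meninges and the walls of larger vessels. Basement membrane collagens, led by type IV, form the sheet under the endothelium and around the brain surface, and the remaining collagens bind to fibrils, form microfibrils or short networks, or span the cell membrane. The 42 genes were 11 fibrillar collagens, 8 basement membrane collagens (the 6 chains of type IV with Col15a1 and Col18a1) and 23 other collagens, of which 22 were tested.

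No collagen gene passed the test in any comparison, and differences from Control were small. The largest was that of Col1a2, which encodes a chain of type I collagen, at -0.44 on the log2 scale in the IL-6 High group. Between arrays of the same group, Col1a2 varied with Col3a1, Col1a1, Col6a1, the meningeal fibroblast marker Slc13a4 and the smooth muscle marker Myl9. Col4a1 varied with Col4a2, and Col9a1 with Col9a2. As a description without a test, Col1a2, Col1a1, Col3a1, Col12a1, Col6a1 and Col4a5 had median correlations over 0.5 with a list of meningeal markers, and Col4a1, Col4a2, Col15a1, Col11a1 and Col16a1 with a list of endothelial markers. The endothelial marker tested with Col4a1, Cldn5, did not pass (r = 0.251, permutation p = 0.178, adjusted 0.268).

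The promoters of Col1a2 and Col3a1 and of Col4a1 and Col4a2 are shown because these pairs differ in layout. Each window runs from 250 bases before to 50 bases after the start of the gene in RefSeq (GRCm38.p6), is 300 bases long and is written 5′ to 3′ on the strand of the gene. Capitals mark the TATA box (letters TATAAA), the CCAAT box (letters CCAAT) and the GC box (letters GGGCGG), each searched on both strands.
Col1a2, chr6:4505368-4505667, plus strand: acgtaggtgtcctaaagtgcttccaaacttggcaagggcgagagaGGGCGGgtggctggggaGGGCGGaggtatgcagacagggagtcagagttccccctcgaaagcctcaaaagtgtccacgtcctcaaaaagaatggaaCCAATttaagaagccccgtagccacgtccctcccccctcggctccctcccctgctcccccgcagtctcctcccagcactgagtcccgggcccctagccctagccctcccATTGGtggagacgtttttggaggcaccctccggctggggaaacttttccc
Col3a1, chr1:45311288-45311587, plus strand: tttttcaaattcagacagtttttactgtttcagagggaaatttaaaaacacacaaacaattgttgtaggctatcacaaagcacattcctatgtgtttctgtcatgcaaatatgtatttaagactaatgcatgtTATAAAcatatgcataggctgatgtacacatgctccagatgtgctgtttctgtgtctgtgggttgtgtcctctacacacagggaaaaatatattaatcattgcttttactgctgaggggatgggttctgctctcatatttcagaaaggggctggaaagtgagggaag
Col4a1, chr8:11312777-11313076, minus strand: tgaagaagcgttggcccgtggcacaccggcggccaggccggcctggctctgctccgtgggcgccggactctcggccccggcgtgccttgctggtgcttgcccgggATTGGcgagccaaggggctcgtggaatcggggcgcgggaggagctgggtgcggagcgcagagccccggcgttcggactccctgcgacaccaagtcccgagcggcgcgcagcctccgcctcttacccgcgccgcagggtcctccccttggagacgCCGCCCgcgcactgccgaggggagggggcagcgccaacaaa
Col4a2, chr8:11312555-11312854, plus strand: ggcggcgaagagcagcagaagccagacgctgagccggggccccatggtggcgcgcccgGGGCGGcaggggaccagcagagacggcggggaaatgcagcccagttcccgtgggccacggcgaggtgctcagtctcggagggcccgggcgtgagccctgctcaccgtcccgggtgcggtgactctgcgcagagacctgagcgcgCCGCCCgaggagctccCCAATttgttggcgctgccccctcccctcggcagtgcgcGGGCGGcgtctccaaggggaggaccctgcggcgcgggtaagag

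The starts of Col4a1 and Col4a2 lie 21 bases apart on opposite strands, so that their windows share 78 bases. The Col1a2 window held 2 CCAAT boxes and 2 GC boxes and no TATA box, and the Col3a1 window held 1 TATA box and neither of the other motifs. Windows were found for 34 of the 42 genes (37 windows, since Col18a1, Col6a2 and Col9a1 have 2 each). Col12a1, Col14a1, Col1a1, Col22a1, Col26a1, Col2a1, Col4a3 and Col5a2 had none. A GC box was present in 22 of the 37 collagen windows, and in 35.7% of all 32851 RefSeq windows of this length. A TATA box was present in 5 of 37, and in 13.6% of all windows, and a CCAAT box in 12 of 37, and in 37.4% of all windows. The letters TTCNNNGAA, the motif of the STAT factors that act downstream of IL-6, were present in 2 of 37 collagen windows and 8.30% of all windows. A loose pattern of the NF-kB factors that act downstream of TNFα, GGG and CC with any 5 bases between them, was present in 29 of 37 collagen windows and 50.8% of all windows, and it can overlap a GC box. A match says only that these letters are in the window, since position was not a criterion. Counted from the start of the gene, the TATAAA of Col3a1 lies at -117. One CCAAT match of Col1a2 lies at 0 and the GC match of Col4a1 at 9.

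Type I collagen, the main fibril of connective tissue, is assembled from Col1a1 and Col1a2 chains. In Control arrays, Col1a2 had log2 intensities of 7.41, 6.91, 6.54, 7.52, 7.18 and 6.58 in replicates 1 to 6. It ran from 6.48 through a median of 6.83 to 6.997 on the 5 TNF arrays and from 6.26 through 6.82 to 7.23 with IL-6 Low. With IL-6 High the lowest, median and highest were 6.37, 6.56 and 6.92, with TNF + IL-6 Low 6.43, 6.79 and 7.36, and with TNF + IL-6 High 6.66, 6.82 and 7.36. All groups overlapped the Control arrays. The highest 2 of all 35 values were Control replicates 4 and 1, and Control replicates 3 and 6 were as low as the treated arrays. The difference from Control was -0.24 in the TNF group, -0.23 with IL-6 Low, -0.44 with IL-6 High, -0.21 with TNF + IL-6 Low and -0.10 with TNF + IL-6 High. That of IL-6 High had a standard error of 0.17 and a 95% interval of -0.78 to -0.10 (limma, unadjusted p = 0.0131), and its Benjamini-Hochberg adjusted p over all genes was 1.00. All 5 comparisons share the same 6 Control arrays. Without Control replicate 4 the difference with IL-6 High was -0.34, and without Control replicate 3 it was -0.54.

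Of the other chain, Col1a1, the Control arrays ran from 6.43 through 6.63 to 6.99, those of IL-6 Low from 6.04 through 6.40 to 6.80, and those of IL-6 High from 6.12 through 6.41 to 6.54. Its differences from Control were -0.13 in the TNF group, -0.26 with IL-6 Low, -0.27 with IL-6 High, -0.24 with TNF + IL-6 Low and 0.02 with TNF + IL-6 High, where TNF + IL-6 High replicate 2 had the highest value of all arrays, 7.30. The groups overlapped in each of these. Col3a1, the type III collagen that shares fibrils with type I, ran from 5.35 through 5.40 to 5.83 in Control and had differences of 0.03, -0.10, -0.17, -0.19 and -0.13 in the same order of groups. In the mean of the 5 treated groups against Control, the differences were -0.24 (95% interval -0.51 to 0.02) for Col1a2, -0.18 (-0.39 to 0.03) for Col1a1 and -0.11 (-0.30 to 0.08) for Col3a1. Without Control replicate 4 they were -0.15 for Col1a2, -0.11 for Col1a1 and -0.04 for Col3a1. None passed the test.

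**Figure D1:**
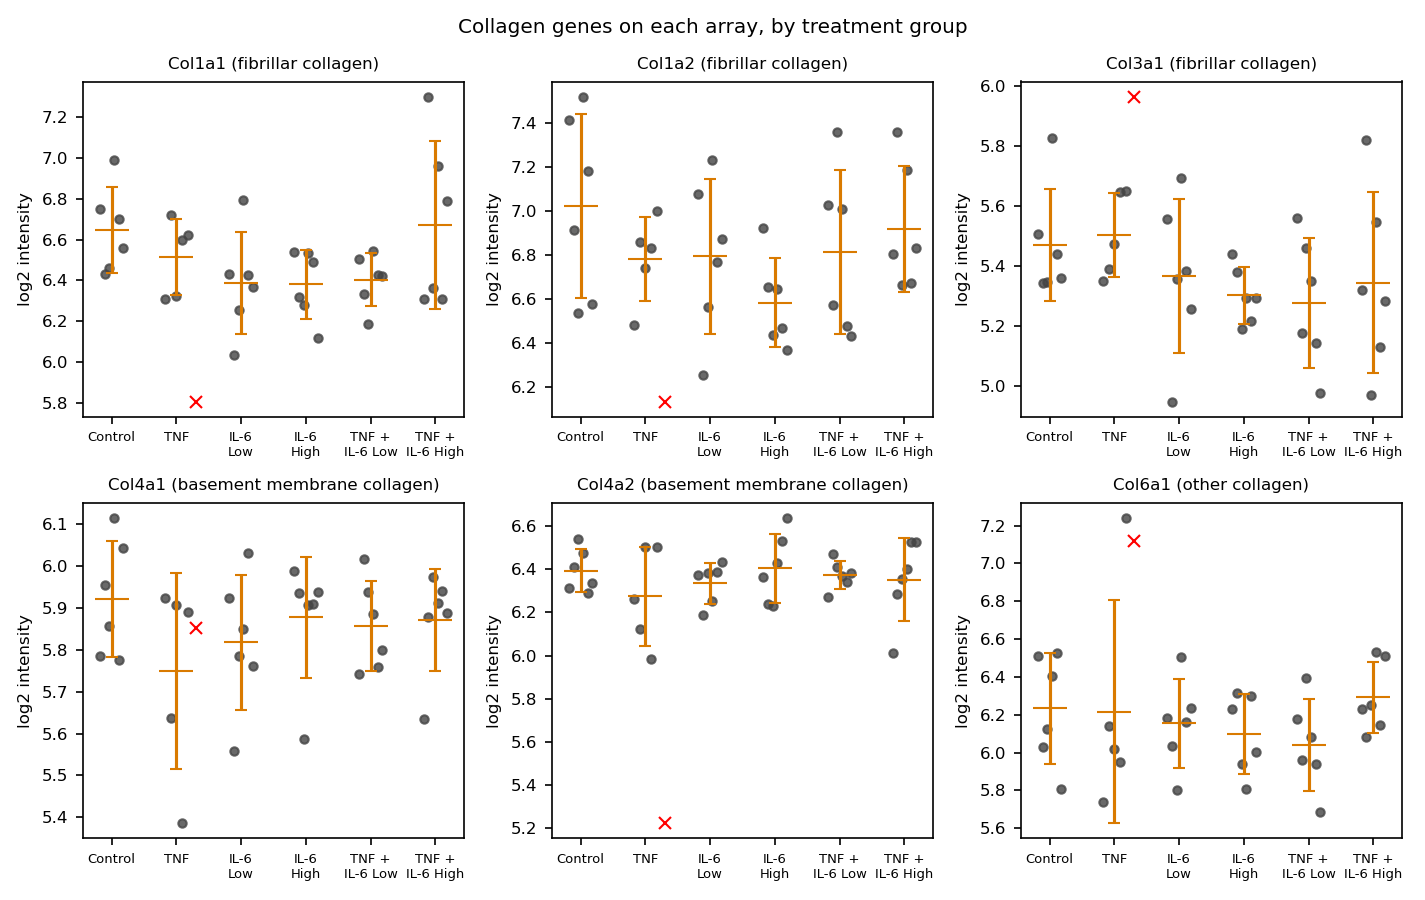
Log2 intensity of 6 collagen genes on each array (points) by treatment group, with the mean and SD of the group in orange; the red cross is TNF replicate 4, which is not in the means. The groups overlap for each gene, Col1a2 spans 6.54 to 7.52 within Control alone, and Col6a1 on TNF replicate 6 is at 7.24.

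Among the other fibrillar collagens, Col24a1, Col11a1, Col27a1 and Col5a3 were higher in all 5 treated groups than in Control without passing the test. The 5 comparisons share the same Control arrays, so their signs are not independent. The share of all genes higher in all 5 groups is not given. For Col5a3 the means with IL-6 High and in Control were both 5.12 after rounding. Col24a1, a minor fibrillar collagen of developing bone, had log2 intensities of 4.71 to 5.06 with a median of 4.83 in Control. It ran from 4.86 through 5.06 to 5.09 with TNF, from 4.69 through 5.00 to 5.09 with IL-6 Low and from 4.70 through 5.07 to 5.31 with IL-6 High. With TNF + IL-6 Low it ran from 4.94 through 5.10 to 5.37, and with TNF + IL-6 High from 4.84 through 5.06 to 5.23. The groups overlapped, with differences of 0.14, 0.09, 0.18, 0.25 and 0.20. In the mean of the 5 groups the difference was 0.17 (SE 0.07, limma unadjusted p = 0.0283, adjusted p = 1.00). Col11a1 (0.10) and Col27a1 (0.10) had smaller mean differences, and the type V chains Col5a1, Col5a2 and Col5a3, which nucleate type I fibrils, were at -0.01, -0.05 and 0.05. Col2a1 and Col11a2, best known from cartilage, were at -0.06 and 0.01.

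Mean differences of the basement membrane collagens ran from -0.09 to 0.05. Col4a1 and Col4a2, the chains of the type IV molecule present in all basement membranes, had Control values of 5.78 to 6.11 (median 5.90) and of 6.29 to 6.54 (median 6.37). The TNF arrays ran from 5.39 through 5.89 to 5.92 for Col4a1 and from 5.98 through 6.26 to 6.50 for Col4a2, and they overlapped Control for both. The differences in the TNF group were -0.17 for Col4a1 (limma unadjusted p = 0.0807, adjusted p = 0.911, the smallest of the collagens in that comparison) and -0.12 for Col4a2. Without TNF replicate 5 they were -0.08 and -0.05. In the other 4 groups those of Col4a1 lay between -0.10 and -0.04 and those of Col4a2 between -0.06 and 0.01. Col4a3, Col4a4, Col4a5 and Col4a6, the chains of specialised basement membranes such as that of the glomerulus, had mean differences of 0.03, -0.03, -0.06 and 0.05. Col15a1 and Col18a1, which carry heparan or chondroitin sulphate chains and lie in vessel basement membranes, were at 0.02 and 0.04.

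Among the other collagens, the type VI chains Col6a1, Col6a2 and Col6a3, which assemble beaded microfibrils, had mean differences of -0.07, -0.05 and 0.00, and 5 of the 6 type VI genes were lower than Control. Col6a1 ran from 5.81 through 6.26 to 6.53 in Control and from 5.74 through 6.02 to 7.24 in the TNF group. The value of 7.24 was that of TNF replicate 6, and the next TNF array was at 6.14. The transcript clusters of Col6a5 differed in sign, with mean differences of 0.11 for the cluster used and -0.04 for the other, and so did those of Col6a6 (-0.09 and 0.03). Col12a1, a fibril-associated collagen, had a difference of -0.21 with IL-6 High (limma unadjusted p = 0.0333) and -0.12 in the mean of the 5 groups.

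Col14a1, also fibril-associated, was the only collagen whose arrays did not overlap between a treated group and Control. Its Control values were 5.10, 5.07, 5.10, 5.26, 5.23 and 5.08, and its IL-6 Low values 4.80, 5.03, 4.85, 4.97, 4.89 and 5.03. This was 1 of 41 collagens, and the groups did not overlap in either direction for 0.0664% of all genes there. In the other comparisons 0 of 41 collagens had groups without overlap, beside 0.246% of all genes with TNF, 0.0332% with IL-6 High, 0.193% with TNF + IL-6 Low and 0.159% with TNF + IL-6 High. Its difference was -0.21 (limma unadjusted p = 0.0378, adjusted p = 1.00), and it was -0.17 with TNF and between -0.11 and 0.00 in the remaining groups. Col8a2, a short-chain network collagen known from the cornea, had a difference of 0.30 with TNF + IL-6 High (SE 0.13, limma unadjusted p = 0.0266, adjusted p = 1.00), with overlap (4.72 to 5.33 in Control and 4.86 to 5.77 with treatment). Its partner Col8a1 was at -0.05 there. Col25a1, a membrane-spanning collagen made by neurons, ran from 7.07 to 7.67 in Control and had differences of -0.11 to 0.13. The remaining membrane-spanning collagens Col13a1, Col17a1 and Col23a1 had mean differences of 0.03, 0.05 and 0.03.

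**Figure D2:**
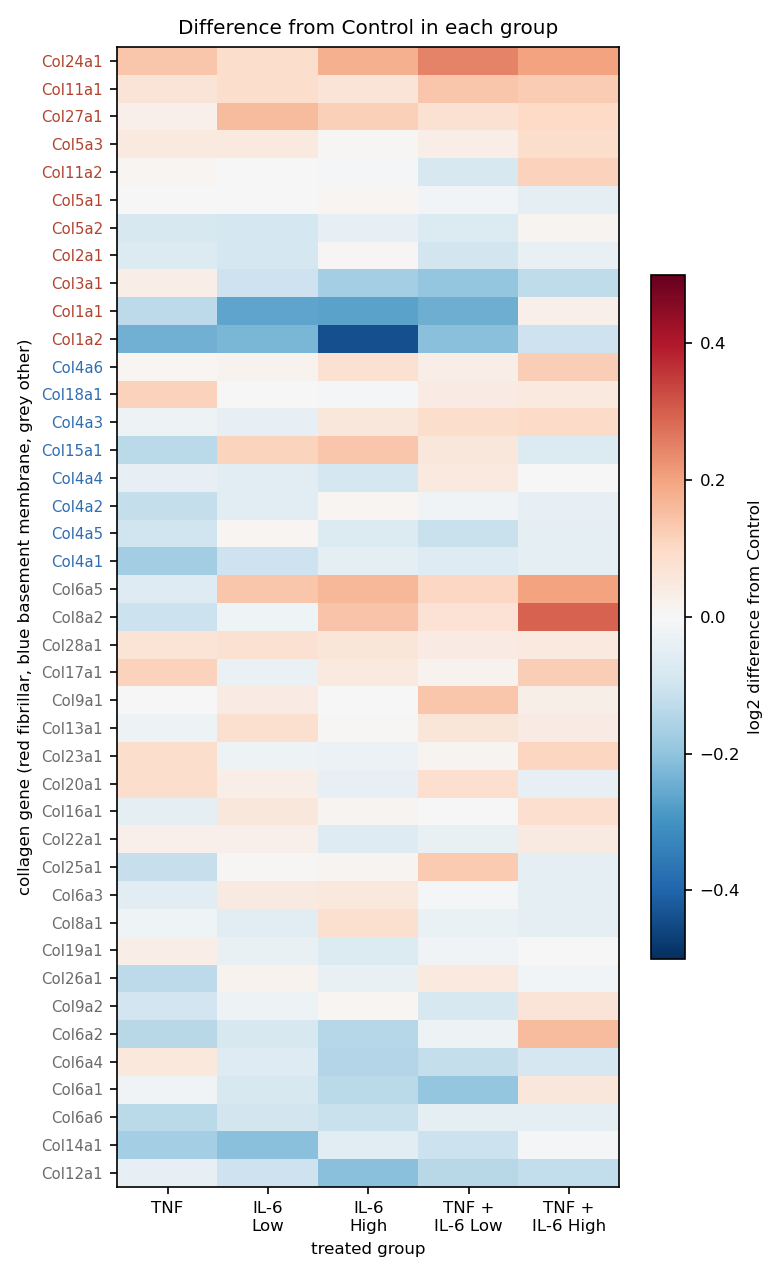
Log2 difference from Control of the 41 tested collagen genes (rows, names coloured by class) in each treated group (columns), from -0.5 (blue) to 0.5 (red). The strongest blue is Col1a2 with IL-6 High (-0.44) and the strongest red Col8a2 with TNF + IL-6 High (0.30); none of these differences passed the test.

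Over the whole family, limma with Benjamini-Hochberg adjustment over 15049 genes called 0 of the 41 collagens in each of the 5 comparisons, in the mean of the 5 treated groups and in the F tests of any difference, and it called 0% of all genes in each of these too. The smallest adjusted p of a collagen was 0.511 (Col24a1, TNF + IL-6 Low). At an unadjusted p under 0.05 there were 0 collagens in the TNF group (5.29% of all genes), 1 with IL-6 Low (1.4%), 2 with IL-6 High (2.07%), 1 with TNF + IL-6 Low (9.58%) and 2 with TNF + IL-6 High (2.05%). In the mean of the 5 groups there was 1 (3.08% of all genes). An F test among the 5 treated groups alone, which does not use the Control arrays, had an unadjusted p under 0.05 for 2 collagens, Col6a2 and Col8a2 (3.34% of all genes).

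How large a difference in array intensity is left possible can be read from the intervals. Several collagens lay near the intensity filter, with mean log2 intensities of 4.53 for Col4a6, 4.64 for Col17a1 and 4.64 for Col6a4. How far intensity follows the amount of RNA there was not tested. For such genes a narrow interval therefore does not bound the change in RNA. No collagen had a fold over 1.5 in any group, beside 0.213% of all genes with TNF, 0.0266% with IL-6 Low, 0.133% with IL-6 High, 0.279% with TNF + IL-6 Low and 0.0664% with TNF + IL-6 High, and Col1a2 with IL-6 High, at 1.36-fold lower, was the largest. The 95% interval lay within a 1.5-fold change in either direction for 40 of 41 collagens in the TNF group (96.7% of all genes), 41 with IL-6 Low (98.2%), 40 with IL-6 High (98%), 41 with TNF + IL-6 Low (97%) and 41 with TNF + IL-6 High (98.2%). The exception in both cases was Col1a2. In the mean of the 5 groups all 41 were within 1.5-fold (99% of all genes). These shares are close to those of all genes.

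Each class held genes on both sides of Control. In the mean of the 5 groups, 5 of 11 fibrillar, 4 of 8 basement membrane and 9 of 22 other collagens were higher than Control, as were 46.1% of all genes, with medians of -0.01, 0.00 and 0.00, beside -0.01 over all genes. The medians of the fibrillar collagens were 0.01 in the TNF group, 0.00 with IL-6 Low, 0.00 with IL-6 High, -0.07 with TNF + IL-6 Low and 0.02 with TNF + IL-6 High. Those of the basement membrane collagens were -0.07, -0.02, 0.00, 0.04 and -0.02, and those of the other collagens -0.03, -0.02, -0.01, 0.00 and 0.04, in the same order. The basement membrane median with TNF ran from -0.11 without TNF replicate 6 to -0.02 without TNF replicate 1 and was 0.04 with all 36 arrays, and the fibrillar median with TNF + IL-6 Low was -0.01 without its replicate 4.

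**Figure D3:**
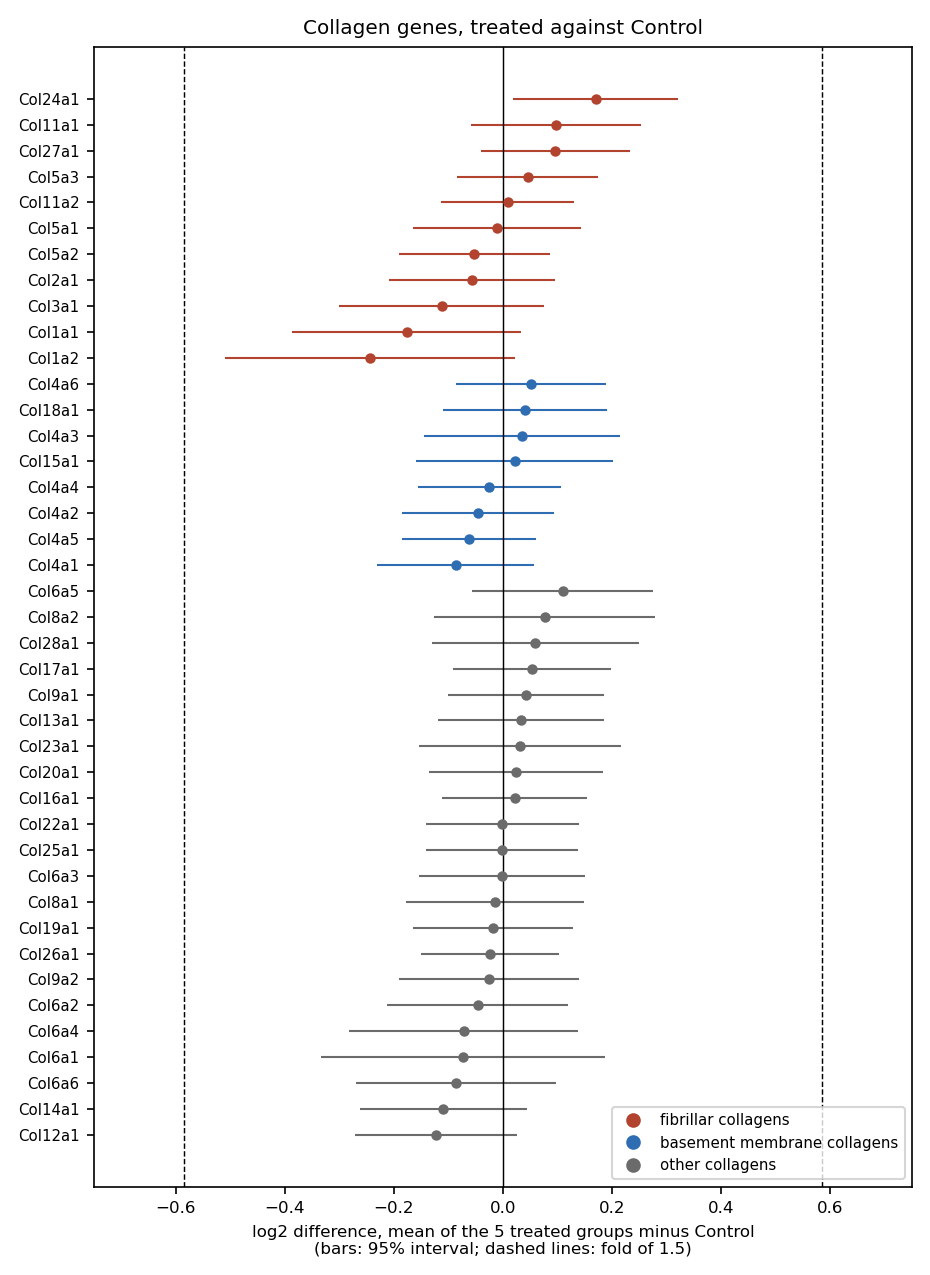
Difference of each tested collagen gene between the mean of the 5 treated groups and Control (points, log2) with its 95% interval, sorted within fibrillar (red), basement membrane (blue) and other collagens (grey). All 41 intervals lie inside the dashed lines of a 1.5-fold change, and that of Col1a2 (-0.51 to 0.02) is the widest in the negative direction.

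The genes that make, bind and remodel collagen were examined from lists, and again none passed the test in the mean of the 5 groups. The lists were chosen with earlier results of these data known. Genes named here are those of smallest p in each list, and all of them were lower. Other genes were higher, by up to 0.15 for processing, 0.12 for breakdown, 0.09 for modification, 0.07 for receptors and 0.07 for TGF-beta signalling. Of 18 genes for modification, folding and secretion, 12 were lower and 6 higher than Control, with Serpinh1, the collagen chaperone HSP47, at -0.19 and the prolyl hydroxylase chain P4ha2 at -0.12. Of 10 genes for procollagen processing and cross-linking, 5 were lower, with Pcolce, an enhancer of the removal of the C-terminal propeptide, at -0.37 (limma unadjusted p = 0.0339). Of 14 fibril-binding proteins, 13 were lower, with a median of -0.20, including fibronectin (Fn1, -0.39) and the small proteoglycans Fmod (-0.65) and Dcn (-0.34). Of 14 other basement membrane proteins 14 were lower, with a median of -0.11 beside -0.01 over all genes and 53.9% of all genes lower, and the laminin chains Lamb2 (-0.19), Lamc3 (-0.18) and Lama4 (-0.22) were among them. Of 9 collagen receptors 5 were lower, with Ddr2, a receptor tyrosine kinase for fibrillar collagen, at -0.29 and Itga10 at -0.19. Of 10 genes for collagen breakdown 7 were lower, with Timp3 at -0.19 and Mmp2 at -0.16, and of 19 genes of TGF-beta signalling, a driver of collagen transcription, 13 were lower, with Ccn2 at -0.38 and Tgfbi at -0.23.

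Markers of cell types that make collagen were mostly lower too in the mean of the 5 groups, beside 53.9% of all genes. This was not particular to them. Of hypothalamic neuron markers 9 of 11 were lower (median -0.13), of choroid plexus markers 7 of 10 and of oligodendrocyte markers 5 of 6. Those of astrocytes (4 of 8), microglia (4 of 9), tanycytes and ependyma (3 of 7) and pituitary (1 of 8) were not mostly lower. All 24 meningeal fibroblast markers had lower means in treated than in Control mice, with a median of -0.34, as had 12 of 16 markers of vascular smooth muscle and pericytes (median -0.13) and 14 of 15 endothelial markers (median -0.09), and none of these passed the test. These marker lists, too, were chosen with earlier results of these data known. The meningeal markers varied together (median r 0.782 within the list) and were compared with the same Control arrays, so the 24 are not separate observations. One of them, Slc13a4, was higher on Control replicates 1 and 4 (8.14 and 7.91) than on any other array. The fibril-binding genes Dcn, Lum, Fmod and Ogn are also in the meningeal list. The summed intensity of the meningeal markers ranged from 1619 to 5617 (median 3138) over the Control arrays and from 1563 to 3389 (median 2015) with IL-6 High, where Col1a2 was lowest. Medians were 2573 with TNF, 2769 with IL-6 Low, 2298 with TNF + IL-6 Low and 2742 with TNF + IL-6 High, and all ranges overlapped that of Control. The part of these markers in the group values of the collagens was not tested. In whole hypothalamus, fewer cells of a type and less RNA per cell cannot be told apart.

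Spread between arrays of 1 group differed between the collagens. The pooled within-group SD was 0.318 for Col1a2, above that of 96.4% of all genes tested, 0.310 for Col6a1 (95.9%), 0.246 for Col1a1 (88.9%) and 0.213 for Col3a1 (79.0%). The medians were 0.163 for the fibrillar, 0.151 for the basement membrane and 0.169 for the other collagens, beside 0.165 for all genes. Basement membrane collagens ranged only from 0.118 to 0.203. In all, 2 of 41 collagens were among the 5% of genes with the widest spread.

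To see which collagens varied together, deviations from the group means were correlated over the 35 arrays for 18 pairs, with two-sided permutation tests within groups. Of these, 7 passed after adjustment over the 18. The collagens and marker lists behind these pairs were chosen with earlier results of these data known, and the adjustment does not cover that choice. Col1a2 and Col3a1 had r = 0.840 (rho 0.861), and both had a permutation p of 1e-05, the smallest that 100000 resamples can give (adjusted 9e-05). Col1a1 and Col1a2 had r = 0.659 (rho 0.657, permutation p = 5e-05 and 6e-05, adjusted 0.0003 and 0.00036), and Col1a2 and Col6a1 r = 0.581 (rho 0.644, permutation p = 0.00011 and 0.00014, adjusted 0.000396 and 0.00063). Without the 2 arrays farthest from the median of the first gene, r was 0.826, 0.643 and 0.549 in turn. Array names give the row of the plate, which holds several groups, and within the 4 rows r was 0.699 to 0.921 for Col1a2 and Col3a1, 0.462 to 0.871 for Col1a1 and Col1a2 and 0.463 to 0.918 for Col1a2 and Col6a1.

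Col4a1 and Col4a2, which start head to head as do the other type IV pairs, had r = 0.670 (rho 0.569, permutation p = 0.00011 and 0.00124, adjusted 0.000396 and 0.00446). It was 0.571 without the 2 farthest arrays and 0.206 to 0.827 within rows. Mean log2 intensities were 5.85 for Col4a1 and 6.36 for Col4a2. Those of Col4a3 (4.74), Col4a4 (4.97), Col4a5 (5.10) and Col4a6 (4.53) were closer to the filter, which limits a comparison of r between the pairs. The other type IV pairs did not pass: Col4a3 and Col4a4 had r = 0.264 (rho 0.284, permutation p = 0.138 and 0.119, adjusted 0.226 and 0.194) and Col4a5 and Col4a6, whose RefSeq starts lie 1343 bases apart, r = 0.030 (rho -0.01, permutation p = 0.874 and 0.966, adjusted 0.902 and 0.966). Col9a1 and Col9a2, chains of type IX collagen, passed with r = 0.491 (rho 0.499, permutation p = 0.00132 and 0.00288, adjusted 0.00396 and 0.00856) and had -0.06 to 0.594 within rows. Col6a1 and Col6a2, neighbours in the genome, did not pass with r = 0.347 (rho 0.395, permutation p = 0.0392 and 0.0271, adjusted 0.0784 and 0.0609), and r was 0.527 without TNF replicate 6, where the pair passed. Col8a1 and Col8a2 had r = 0.025 (rho 0.050, permutation p = 0.902 and 0.795, adjusted 0.902 and 0.842), and Col3a1 and Col5a2 r = 0.204 (rho 0.198, permutation p = 0.322 and 0.312, adjusted 0.407 and 0.432).

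No relation passed between the fibrillar Col1a2 and the basement membrane Col4a1, which had r = 0.160 (rho 0.111, permutation p = 0.362 and 0.553, adjusted 0.407 and 0.622). Col1a2 had r = 0.804 with Slc13a4, a sulphate transporter of meningeal fibroblasts (rho 0.806, permutation p = 1e-05, adjusted 9e-05 for both), and 0.637 to 0.969 within rows. It had r = 0.587 with Myl9, the smooth muscle myosin light chain (rho 0.545, permutation p = 0.0026 and 0.00333, adjusted 0.00669 and 0.00856), and 0.488 to 0.849 within rows. Without the 2 farthest arrays these were 0.821 and 0.592. With Cldn5, the endothelial tight junction protein, Col1a2 had r = 0.165 (rho 0.129, permutation p = 0.339 and 0.480, adjusted 0.407 and 0.576). Col4a1 had r = 0.178 with Slc13a4, 0.292 with Myl9 and 0.251 with Cldn5 (permutation p = 0.354, 0.117 and 0.178, adjusted 0.407, 0.210 and 0.268), and rho of 0.147, 0.336 and 0.238 (permutation p = 0.445, 0.0862 and 0.194, adjusted 0.572, 0.155 and 0.291), none of which passed. Col1a2 and the neuronal Col25a1 had r = -0.41 (rho -0.37, permutation p = 0.0237 and 0.0323, adjusted 0.0534 and 0.0645) and did not pass. With 1 array left out r ran from -0.51 to -0.33 and passed in 8 of 35 cases, and with all 36 arrays it was -0.003.

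**Figure D4:**
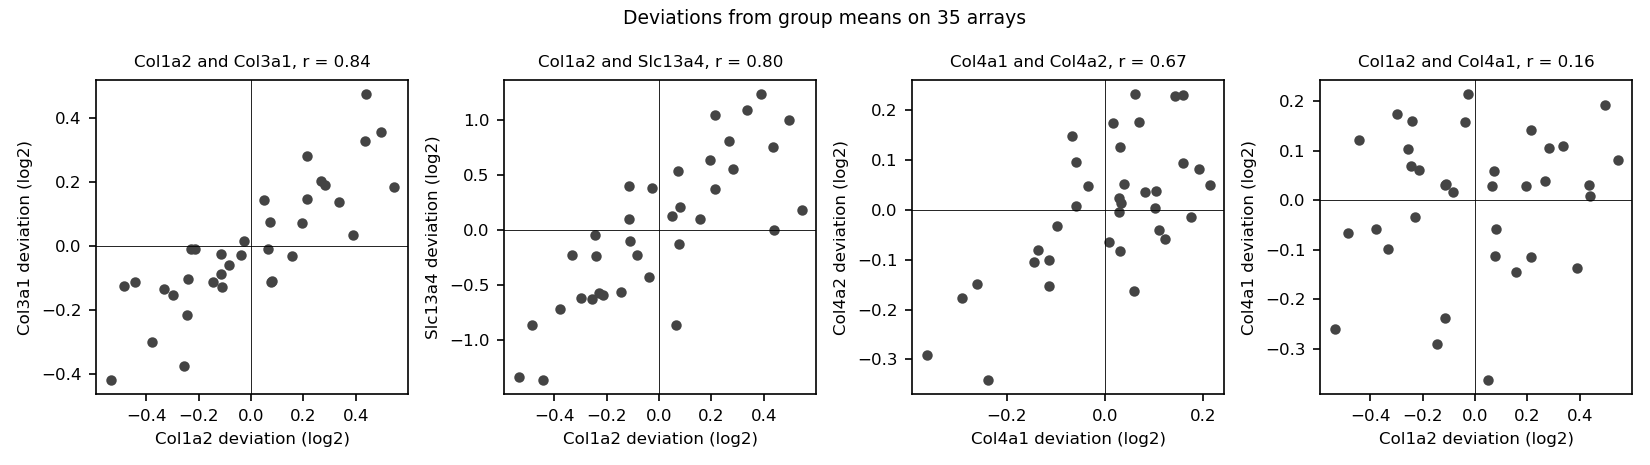
Deviations of log2 intensity from the group mean for 4 pairs of genes, 1 point per array (35 arrays). Col1a2 follows Col3a1 (r = 0.840) and the meningeal marker Slc13a4 (0.804), and Col4a1 follows Col4a2 (0.670), whereas Col1a2 and Col4a1 show little relation (0.160).

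Relations with whole marker lists are given as a description, since all genes share the same arrays. The median r of Col1a2 with the 24 meningeal markers was 0.771, and 20 of the 24 were over 0.5. Medians were 0.632 for Col3a1, 0.585 for Col6a1, 0.584 for Col12a1, 0.532 for Col1a1 and 0.521 for Col4a5, so that 6 of 41 collagens had a median over 0.5, beside 1.34% of all genes tested. With the 15 endothelial markers, medians were 0.609 for Col11a1, 0.570 for Col4a1, 0.541 for Col15a1, 0.531 for Col16a1 and 0.509 for Col4a2, that is 5 of 41 collagens over 0.5 beside 2.83% of all genes. No collagen was over 0.5 for both lists: Col1a2 was at 0.205 with the endothelial markers, and Col4a1 at 0.018 and Col4a2 at -0.11 with the meningeal markers. With the 16 markers of smooth muscle and pericytes 0 of 41 collagens were over 0.5 (0.246% of all genes), and the highest was Col12a1 (0.413). The markers of that list were themselves only loosely related, with a median of 0.366, against 0.782 for the meningeal and 0.649 for the endothelial list. By class, the basement membrane collagens had a median of 0.335 with the endothelial list and 0.00 with the meningeal list, and the fibrillar collagens 0.166 and 0.068. The fibrillar class was divided, with Col1a2, Col3a1 and Col1a1 at the meningeal end and Col11a1 and Col24a1 (0.481) at the endothelial end. Col25a1 had the lowest median with the meningeal list, -0.39.

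**Figure D5:**
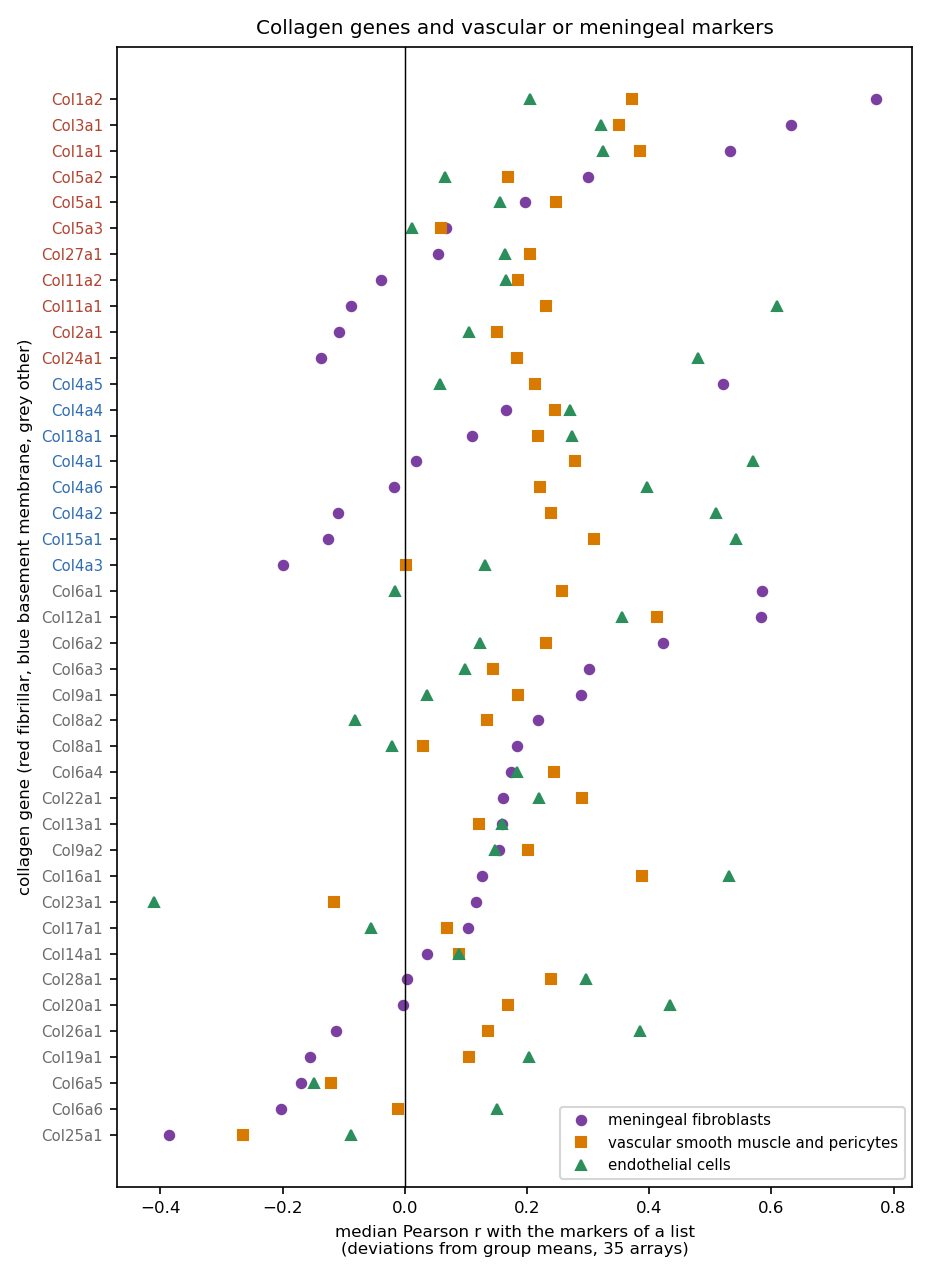
Median Pearson r of each tested collagen gene (rows, names coloured by class) with the 24 meningeal fibroblast markers (purple circles), the 16 markers of smooth muscle and pericytes (orange squares) and the 15 endothelial markers (green triangles), from deviations on 35 arrays. Col1a2 has the highest median with the meningeal list (0.771) and Col11a1 with the endothelial list (0.609).

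Over all 820 pairs of tested collagens the median r was 0.162, with 0.263 within the fibrillar class, 0.216 within the basement membrane class and 0.109 within the other collagens. Across classes it was 0.261 between fibrillar and basement membrane collagens, 0.173 between fibrillar and other collagens and 0.147 between basement membrane and other collagens. Beside the pairs above, the highest were Col1a1 with Col3a1 (0.716), Col1a1 with Col12a1 (0.690), Col1a2 with Col12a1 (0.689), Col18a1 with Col6a2 (0.686), Col15a1 with Col16a1 (0.676) and Col24a1 with Col16a1 (0.675). The lowest were Col25a1 with Col6a2 (-0.48) and Col14a1 with Col23a1 (-0.47). These pairs were picked from the matrix by size and carry no test.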

How the data were processed

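The authors normalized the arrays with RMA and deposited log2 intensities of transcript clusters in 1 table, which were used as deposited. The study's methods describe a summary by Entrez gene, so these cluster values are not the summaries it describes. The version of RMA and a genome build are not given in the sources used here. The collagens and all lists were chosen with earlier results of these data known. Clusters with 1 gene symbol were kept (21218 of 35556), with the cluster of highest mean for each gene. Using limma 3.58.1 in R 4.3.3, 35 arrays were fitted with 1 model of group means (lmFit, eBayes with an intensity trend), and p-values were adjusted over 15049 genes with a threshold of 0.05. Described in full were Col1a1, Col1a2, Col3a1, Col5a2, Col4a1, Col4a2, Col15a1, Col18a1, Col6a1, Col6a2, Col8a1, Col25a1, the gene of smallest p in each class and any with a fold over 1.5. Col14a1 and Col8a2 were added after their values were seen. The lists name up to 4 genes of smallest p. Markers higher in the mean of the 5 treated groups were 3 of 10 for choroid plexus, 7 of 8 for pituitary and 5 of 9 for microglia. They were 4 of 8 for astrocytes, 1 of 6 for oligodendrocytes, 4 of 7 for tanycytes and ependyma and 2 of 11 for hypothalamic neurons. Each array is 1 mouse. For Control replicates 5 and 6 the labels and the array names give different mouse numbers, and the labels call the TNFα dose low. Correlations were tested in Python 3.11.15 with 100000 permutations of arrays within groups, NumPy 2.4.6. The number of arrays limits the precision. Alternatives were other filters, scalings, fits, blocks and sets of arrays. The tests were tried on simulated data with known changes.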

Additional observations from a re-analysis of the deposited data

Results flagged for a closer look

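Of 102 groups of values examined (the described collagens and the 3 class means in each group), 7 had a highest or lowest array set apart from the rest by a gap too wide for the group's range, where chance gives about 5%. Col6a1 on TNF replicate 6 was at 7.239 and the next TNF array at 6.142. Col3a1 on Control replicate 4 was at 5.827, with the next array at 5.506. Col4a1 was at 5.587 on IL-6 High replicate 3, with the next array at 5.907, and at 5.634 on TNF + IL-6 High replicate 1, with the next at 5.88. Col12a1 on IL-6 Low replicate 2 was at 5.234, with the next at 5.58. For the class means, taken as deviations from each gene's mean, the basement membrane collagens were at -0.2148 on IL-6 Low replicate 2, and the fibrillar collagens were at 0.1602 on TNF + IL-6 Low replicate 3.

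On TNF replicate 4, the array left out of all comparisons, 29 of 41 collagens were above all Control arrays, as were 4669 of all 15049 genes. Of the collagens, 23 were above and 6 below all other 35 arrays, beside 4159 and 8438 of all genes.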

How the results depend on the processing

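No collagen gene passed the test in 374 fits under other filters, scalings, summaries, blocks and sets of arrays, and the smallest adjusted p among them was 0.226. With an intensity over 50, where 24 collagens were tested, intervals within 1.5-fold numbered 23 in TNF and IL-6 High and 24 in the other comparisons. With replicate number as a block, 0 collagens passed in any comparison. Same-numbered arrays of other groups had a median r of 0.069 (-0.31 to 0.58), others -0.027, and 11 of 35 arrays correlated best with their own number. Arrays of the same plate row in other groups had a median r of 0.036, those of other rows -0.034. Replicate 1 lies in plate row E, 2 and 3 in row F, 4 and 5 in row G and 6 in row H. In rows E and H replicate number and row therefore cannot be told apart. Whether replicate number or plate row pairs the arrays was not tested. The median of all genes moved from -0.006 to 0.005 with centred arrays and 0.002 with quantile normalization.

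Of the 18 pairs, 7 to 9 passed with each array left out in turn and 6 with all 36 arrays, where Col9a1 and Col9a2 went from 0.491 to -0.0458, Col4a1 and Col4a2 went to 0.341 and Col1a2 and Col6a1 to 0.348 without passing. Among all 36 arrays Col4a3 and Col4a4 passed at 0.685 and Col6a1 and Col6a2 at 0.488. The cause was not tested. The count was 7 with plate row as a block and with values centred over all arrays. Counts of collagens at an unadjusted p under 0.05 moved with single arrays, and only the extremes are given. With IL-6 High they numbered 0 without Control replicate 4 and 3 under several omissions, for example without IL-6 High replicate 1. In the IL-6 Low comparison they numbered 0 when its replicate 1 was left out and 3 without Control replicate 3. With TNF they numbered 2 without TNF replicate 3 and 4 with all 36 arrays, and with TNF + IL-6 Low 0 without its replicate 3 and 2 without Control replicate 2. With TNF + IL-6 High they numbered 0 without its replicate 4. In the mean of the 5 groups they numbered 0 without Control replicate 1 and 3 without TNF + IL-6 High replicate 2. Leaving out Control replicates 5 and 6, chosen after seeing the data, gave no call.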

Other observations

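IL-6 Low replicate 2 had the lowest of the 35 values for 13 of 41 collagens, among them Col1a1, Col1a2, Col3a1, Col24a1, Col6a2, Col8a1, Col12a1 and Col18a1, whereas it held the lowest value for 2.37% of all genes. The meningeal fibroblast marker Slc13a4 also had its lowest value of the 35 on this array (5.14). The summed meningeal markers were not lowest there, since no IL-6 Low array was under 1620, beside 1563 on an IL-6 High array. The lowest sums in any group of the smooth muscle and pericyte markers (1043) and of the endothelial markers (2604) fell in the IL-6 Low group, without the array being given. The part of meningeal or vessel cells in the pattern was not tested. IL-6 Low replicate 2 held the highest value of no collagen and of 3.34% of all genes. TNF replicate 5 had the lowest value for 5 of 41 collagens, Col4a1 and Col4a2 among them, and for 5.21% of all genes. IL-6 Low replicate 4 and TNF + IL-6 High replicate 6 each had the highest value for 5 of 41 collagens, beside 0.751% and 1.86% of all genes. Without IL-6 Low replicate 2, r was 0.817 for Col1a2 and Col3a1, 0.623 for Col1a1 and Col1a2 and 0.775 for Col1a2 and Slc13a4.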
